A study of Heliocidaris erythrogramma with 7 samples.

Results

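The step from 20 to 24 hours post fertilization (hpf) in *Heliocidaris erythrogramma* (*He*), a sea urchin whose larva does not feed, was described from the 2 single-cell RNA-seq libraries of these ages. A cell was kept where it had over 200 but under 4000 genes, and under 10000 unique molecular identifiers (UMIs, each counting 1 captured RNA molecule). The study applied the same filter. This left 3441 cells at 24 hpf and 3078 cells at 20 hpf, so 6519 of the 23156 cells kept in the 7 libraries from 6 to 30 hpf. Both libraries came from larvae by their labels, although the study counts them among its embryonic time points, with no treatment, mutant or strain named, and the only labelled difference was age. Larvae were dissociated in a calcium-free glycine buffer and fixed in methanol before capture on droplets with a 3′ chemistry, which reads transcripts near their 3′ end. The number of larvae and of parents behind each library was not given in the sources used here. All libraries were sequenced in the same flow cell. Each age had 1 library, so an age and its library cannot be told apart, and all intervals below cover counting error only.

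Sea urchin larvae pass from embryonic patterning to the building of differentiated tissues over this kind of period. Signals of the Nodal and BMP families set the oral-aboral and left-right axes, the coelomic pouches bud from the tip of the gut, mesodermal cells become pigment, blastocoelar, skeletogenic and muscle cells, and in *He* the adult rudiment forms early on the left side. Yolk, maternal RNA and histone variants made for rapid cleavage are used up while growth through ribosome production begins. The comparison therefore asked which RNAs were more and which were less abundant at 24 hpf, and in how many and in which cells.

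The 24 hpf library held 8696256 UMIs with a median of 2338 UMIs and 1063 genes per cell, and the 20 hpf library held 4797317 UMIs with a median of 1488 UMIs and 847.5 genes per cell. Levels were therefore compared as UMIs per 1e+06 UMIs of the library (CPM), and shares of cells after each cell had been thinned at random to 500 UMIs, which kept all 3441 cells at 24 hpf and 2923 cells at 20 hpf. Of the barcodes, 5 occurred in both libraries (0.145% of the cells at 24 hpf and 0.162% at 20 hpf). No doublet step was applied, and doublets were kept. In summed counts, fewer cells of a type and less RNA per cell cannot be told apart. Known kinds of cell were sought with the marker genes *pks1* of pigment cells, *endo16* of the gut, *hbn* of the animal pole and *hox7* of the posterior ectoderm. The transformer marker of blastocoelar cells, an immune effector of the transformer family, was also used. It was summed over HER_22243.t1, HER_22244.t1, HER_22245.t1, HER_22246.t1 and HER_40156.t1. The same markers were sought in both libraries, so their presence does not check the age labels. Each marker had at least 3 UMIs in 90 or more cells of either library. Cells chosen in this way serve below to read a gene within 1 kind of cell, and to give its share where it should be lacking.

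Of the genes described below, *hox7*, *egfi* and *scl* are shown with sequence, because the study stained the RNA of these genes in larvae. Those larvae were older than the ones compared here, and for *egfi* the study describes the staining of a single transcript. The sequences were not matched to features, and the levels below are sums over all features of a name. For *hox7* and *egfi* the oligos of the first probe pair are given, with the part complementary to the mRNA in capitals and in lower case the initiator on which the fluorescent hairpins assemble. For *scl*, the first bases of the coding sequence are given with the start codon in capitals.
hox7, first oligo: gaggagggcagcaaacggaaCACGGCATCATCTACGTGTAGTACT
hox7, second oligo: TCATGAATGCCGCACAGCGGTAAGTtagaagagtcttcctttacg
egfi, first oligo: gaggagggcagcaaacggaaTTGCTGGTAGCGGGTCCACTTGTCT
egfi, second oligo: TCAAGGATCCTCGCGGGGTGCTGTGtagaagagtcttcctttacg
scl, coding start: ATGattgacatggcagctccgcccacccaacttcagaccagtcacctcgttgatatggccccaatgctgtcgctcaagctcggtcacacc
The lower-case parts are the same in both probe pairs, so only the capitals tell the genes apart. *hox7*, a Hox gene used as a marker of the posterior ectoderm, had 328 CPM at 24 hpf and 211 CPM at 20 hpf. *egfi*, which encodes an apical layer protein with EGF repeats and marks ectoderm of the rudiment, had 896 CPM at 24 hpf and 1470 CPM at 20 hpf. *scl*, a bHLH transcription factor known from blood formation in vertebrates, had 348 CPM at 24 hpf and 1135 CPM at 20 hpf. The 3 stained genes thus differed in direction, with ratios of 24 over 20 hpf of 1.55 (95% interval 1.45 to 1.67), 0.609 (0.590 to 0.629) and 0.306 (0.293 to 0.320).

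Across the transcriptome the largest single shift was in RNA for ribosomal proteins. Of 38707 features, 11091 had at least 50 UMIs over both libraries. Of these, 298 (2.69%) were at least 2-fold higher at 24 hpf and 448 (4.04%) were at least 2-fold lower, and the 95% interval of the ratio left out 1 for all 746 of them. At 3-fold the numbers were 108 higher and 92 lower, and at 4-fold 55 higher and 31 lower, so lower features outnumbered higher ones at 2-fold and not at 3-fold or 4-fold. The median feature had a log2 ratio of -0.19 (a ratio of 0.876). That shift depends on the scaling: with size factors from the median of ratios, 482 were higher and 229 lower, and with CPM over the UMIs outside cytosolic ribosomal protein genes 377 were higher and 326 lower. All ratios below are of plain CPM and are to be read against this median.

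**Figure D1:**
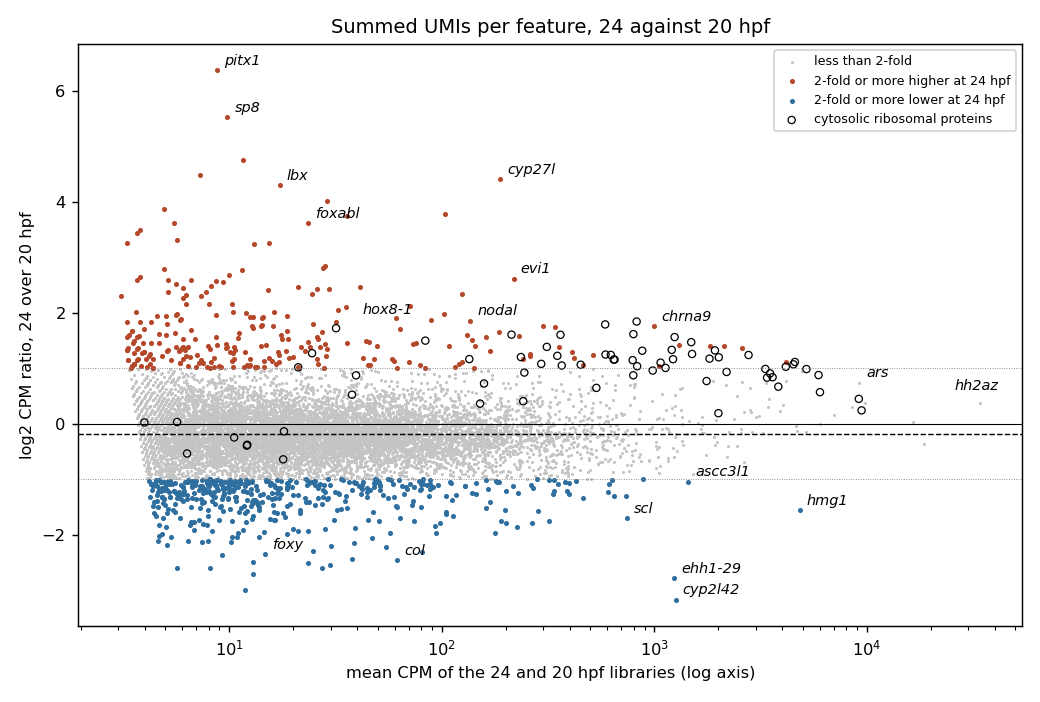
Each point is 1 of the 11091 features with at least 50 UMIs, with the mean CPM of the 24 and 20 hpf libraries on a log axis and the log2 ratio of 24 over 20 hpf on the y axis. Red points (298) were at least 2-fold higher and blue points (448) at least 2-fold lower at 24 hpf, black circles are cytosolic ribosomal protein features, the dashed line is the median of -0.19 and the dotted lines mark 2-fold. *cyp27l* and *evi1* stand high at 24 hpf among the better counted features, and *cyp2l42* and *ehh1-29* stand lowest.

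Summed by gene name, 248 of 9964 genes (2.49%) were at least 2-fold higher and 345 (3.46%) at least 2-fold lower at 24 hpf. Counts of list members below are to be read against these shares. Features with no gene name made up 1731 of those tested, with 45 higher and 88 lower, and features named only as hypothetical proteins 1019, with 35 higher and 61 lower. Summed over all features, the gains and the losses came to 156618 CPM each. Cytosolic ribosomal protein genes gained 60299 CPM of this and lost 22.45 CPM, whereas the features past 2-fold gained 53532 CPM and lost 28956 CPM.

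The libraries before and after gave an account that did not use the compared samples. Of the features at least 2-fold higher at 24 hpf, 266 of the 292 with 20 or more UMIs in these libraries (91.1%) were also higher at 30 than at 16 hpf, against 46.3% of all 11013 features. Of those at least 2-fold lower, 396 of 434 (91.2%) were lower at 30 than at 16 hpf, against 53.7% of all. The median log2 ratio of 30 over 16 hpf was 1.84 for the features higher at 24 hpf and -1.53 for the lower ones, against -0.08 for all features. The 2 directions were thus kept in libraries taken outside the interval, although the 16 hpf library held 486 cells and 936734 UMIs only. Set against 12 hpf instead, 274 of 295 (92.9%) were higher at 30 hpf, against 55.1% of all, and 329 of 443 (74.3%) were lower, against 44.9% of all.

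The levels at 30 and 16 hpf place the step in the series. At 30 hpf, 148 of the 298 higher features (49.7%) stood above their level at 24 hpf, 135 stood between the levels of 20 and 24 hpf and 15 stood below both. Of the 448 lower features, 237 (52.9%) were lower still at 30 hpf, 205 stood between and 6 stood above both. Of all 11091 features, 32.4% stood above both levels at 30 hpf and 36.9% below both. Before the interval, 194 of the 298 (65.1%) were below both levels at 16 hpf, against 36.6% of all, and 304 of the 448 (67.9%) were above both, against 41.6% of all. Over the 7 libraries, the highest level of a feature that was higher at 24 hpf lay at 24 hpf for 125 features and at 30 hpf for another 125 (41.9% each), against 6.51% and 14.5% of all features. The features were chosen by their levels at 20 and 24 hpf, which also serve as bounds here. The choice favours a highest level at 24 hpf and excludes one at 20 hpf. These shares therefore describe the course and are no separate evidence for the step.

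Cytosolic ribosomal protein genes, which encode the protein part of the ribosome, were mostly higher at 24 hpf. Of 57 with at least 50 UMIs, 31 were at least 2-fold higher at 24 hpf and none was 2-fold lower, 53 had a ratio above 1, and the median log2 ratio was 1.03, against -0.19 over all features. Summed over the list, they held 13.4% of the UMIs at 24 hpf and 7.33% at 20 hpf. *rps7* had 1292 CPM at 24 hpf and 360 CPM at 20 hpf (ratio 3.59, 3.41 to 3.78), and *rpl14* had 912 and 264 CPM (3.46, 3.26 to 3.68). Among the genes with most UMIs the ratios were smaller: *rpl11* had 6910 CPM at 24 hpf and 3488 CPM at 20 hpf, and *rpl17* had 6278 and 2900 CPM. The 4 members under a ratio of 1, *rps24* and *rpl4* among them, had between 5.18 and 21.3 CPM at 24 hpf and between 7.5 and 25.2 CPM at 20 hpf, and their intervals all held 1. Over the libraries from 6 to 30 hpf the cytosolic ribosomal protein features held 1.26, 0.747, 2.63, 5.61, 7.33, 13.4 and 13.5% of UMIs, so the share at 24 hpf was near that at 30 hpf.

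The difference was met in all 5 sets of marker-positive cells examined. The share of UMIs from these genes was 8.48% at 24 hpf and 4.70% at 20 hpf in cells with at least 3 UMIs of *pks1* (143 and 101 cells), 10.7% and 5.90% in *hox7* cells (200 and 110 cells) and 9.33% and 5.17% in *hbn* cells (576 and 486 cells). In blastocoelar cells with the transformer marker (366 and 304 cells) it was 13.5% at 24 hpf and 8.00% at 20 hpf, and in *endo16* cells (120 and 90 cells) 16.2% and 8.98%. Gut cells thus had the highest share of the 5 sets at both ages and pigment cells the lowest. For *rps7*, the ratio of 24 over 20 hpf lay between 3.55 and 4.39 in the 5 sets. The cells of 24 hpf were also deeper, with medians of 2348 and 1636 UMIs in the *pks1* cells and 3954 and 2484 UMIs in the *endo16* cells, and the part of depth in these shares was not tested.

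**Figure D2:**
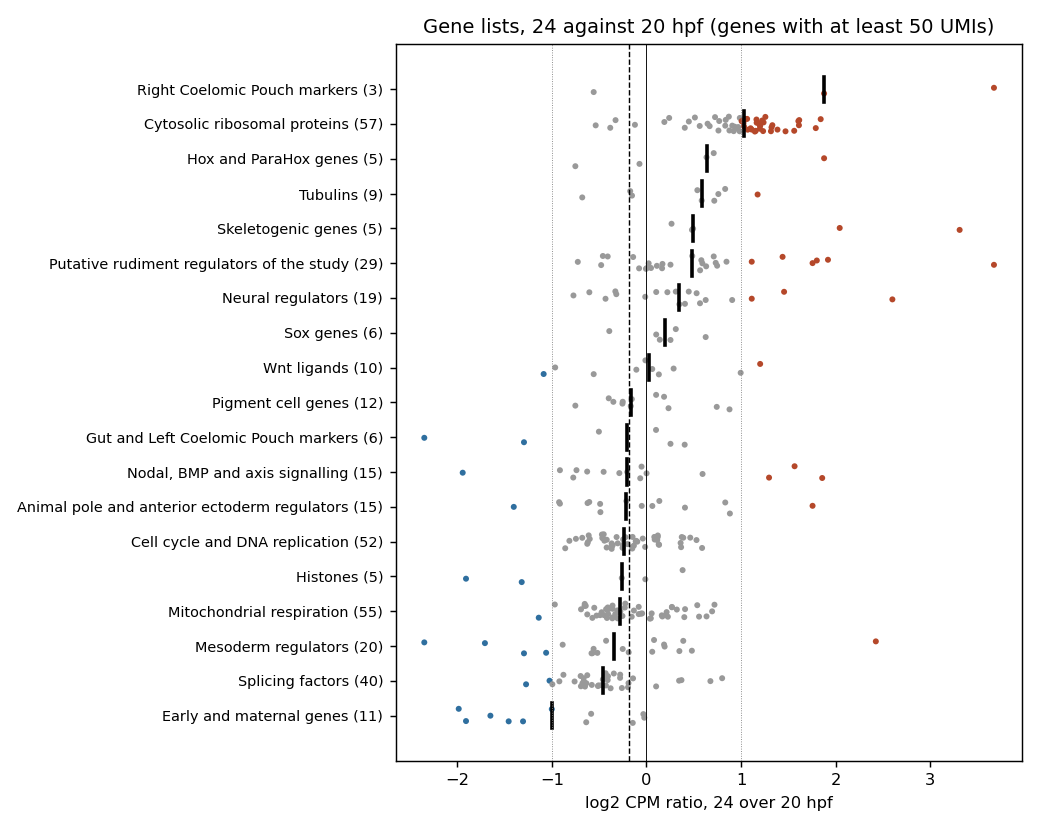
Each point is a gene with at least 50 UMIs, placed by its log2 CPM ratio of 24 over 20 hpf, in 19 of the gene lists with the number of genes in brackets. Black bars are list medians, red and blue points are genes at least 2-fold higher or lower at 24 hpf, and the dashed line is the median of all genes. Cytosolic ribosomal proteins lie to the right as a body, with a median of 1.03, while early and maternal genes lie to the left, with a median of -1.0.

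The other groups of the protein-making machinery did not share this shift. None of 33 translation initiation and elongation factors and none of 32 mitochondrial ribosomal proteins was 2-fold higher or lower, and both medians were -0.18 on the log2 scale, close to that of all features, and slightly positive with size factors (0.06 and 0.05). Of 55 genes of mitochondrial respiration, only *ndufv2*, a subunit of complex I, was 2-fold lower, and none was higher. Of 29 proteasome genes, *psmd1-1* alone passed, with 444 CPM at 24 hpf and 1049 CPM at 20 hpf. Among 53 chaperones 2 were lower and none higher: *hsp40d*, and *grp94* of the endoplasmic reticulum with 320 CPM at 24 hpf and 709 CPM at 20 hpf. Such counts of lower genes are near the share over all genes, of which 3.46% were 2-fold lower and 2.49% higher. In cells with the transformer marker, where *grp94* was most abundant of the 5 sets, it had 2187 CPM at 24 hpf and 5245 CPM at 20 hpf.

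Splicing factors had the lowest median of the large housekeeping lists, at -0.46 on the log2 scale (-0.23 with size factors). Among 40 genes, *lsm12l* and *hnrnpa1l* were 2-fold lower, against 3.46% of all genes. *ascc3l1*, named as a helicase of the spliceosome, had 941 CPM at 24 hpf and 1943 CPM at 20 hpf. Its ratio of 0.484 came to 0.568 with size factors. No gene of 52 in the list of cell cycle and DNA replication passed 2-fold, with a median of -0.23 (0.00 with size factors) and a range from *cdc7* at -0.86 to *bub3h* at 0.59. The cycling machinery thus stayed within the spread of the other genes on this measure.

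Several RNAs stored in the egg or made in cleavage were lower at 24 hpf. Of 11 early and maternal genes, 6 were at least 2-fold lower and none was higher, and the median log2 ratio was -1.0. The other 5 include *el1l4*, *seawi-1* and *c8orf48l*, whose log2 ratios of -0.03, -0.02 and -0.14 lay above the median of all features and turn positive with size factors. *yp303*, a yolk protein gene, had 575 CPM at 24 hpf and 1805 CPM at 20 hpf (ratio 0.319, 0.308 to 0.330), in 24.3% and 57.1% of thinned cells. Its level over the 7 libraries was 29704, 13823, 8639, 4053, 1805, 575 and 293 CPM, so that it was lower at each later age. In the 5 sets of marker-positive cells its ratio lay between 0.244 and 0.399. The other 2-fold lower genes were *nanos2*, a translational repressor of germ line cells, *clvhh1*, the cleavage-stage histone H1, *he1*, the hatching enzyme, *ccnr2* and *guan/cyc*, with ratios from 0.253 to 0.50, the last at the limit with 3.34 CPM at 24 hpf and 6.67 CPM at 20 hpf.

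Histone genes went in both directions. Of 5 listed with at least 50 UMIs, 2 were at least 2-fold lower at 24 hpf (3.46% of all genes were) and none was 2-fold higher. Only 1 had a ratio above 1, and the list median was -0.26 on the log2 scale. These counts leave out *ehh1-29* (HER_5737.t1), named as an early histone H1, which is not in the list. Its log2 ratio of -2.78 was below the lowest of the list, -1.91. It had 314 CPM at 24 hpf and 2160 CPM at 20 hpf (0.146, 0.140 to 0.152), after 112145 CPM at 9 hpf and 64242 CPM at 12 hpf. It was seen in 11.9% of thinned cells at 24 hpf and 37.8% at 20 hpf (35.3% and 60.8% of all cells). The variant *hh2az*, an H2A.Z that does not depend on replication, was the feature with most UMIs in both libraries and gained most CPM, with 38379 CPM at 24 hpf and 29431 CPM at 20 hpf (1.30, 1.30 to 1.31). Within the marker sets *hh2az* was not uniform, with 49580 CPM at 24 hpf and 33762 CPM at 20 hpf in *hbn* cells, against 14910 and 17550 CPM in cells with the transformer marker.

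*hmg1*, a high mobility group gene whose protein bends DNA in chromatin, lost more CPM than any other feature. It had 2449 CPM at 24 hpf and 7222 CPM at 20 hpf (0.339, 0.333 to 0.345), and a UMI in 64.6% of thinned cells at 24 hpf and 93.0% at 20 hpf (94.9% and 98.6% of all cells). The difference was not limited to a kind of cell, since its ratio lay between 0.287 and 0.407 in the 5 marker sets. From 6 to 16 hpf it had 3225, 4909, 9112 and 7340 CPM, and at 30 hpf 2272 CPM, so the step fell between 20 and 24 hpf. *cycs-2*, cytochrome c of the respiratory chain, lost almost as much, with 16289 CPM at 24 hpf and 20866 CPM at 20 hpf, but by a ratio of 0.781 only.

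*cyp2l42* (HER_24682.t1), a cytochrome P450 gene, had the lowest ratio by its interval of all features. It had 252 CPM at 24 hpf and 2268 CPM at 20 hpf (0.111, 0.106 to 0.116), and its share of thinned cells was 9.24% at 24 hpf and 42.9% at 20 hpf (21.3% and 55.3% of all cells). In *hbn* cells it had 371 CPM at 24 hpf and 4387 CPM at 20 hpf, above its level in the library. In *hox7* cells it had 300 and 2591 CPM, nearer to the level in the library. In *pks1* cells, which serve as its background, the levels were 11.6 CPM at 24 hpf and 72.4 CPM at 20 hpf, and a UMI was found in 0 of 143 thinned cells at 24 hpf, which allows up to 2.10%, and in 4.95% at 20 hpf (median depths of 2348 and 1636 UMIs). Its highest library was 12 hpf, with 8611 CPM, and at 30 hpf it had 24.1 CPM. Both features named *cyp2l53* were also among the lowest, with ratios of 0.171 and 0.179, and these 2 features may share reads as near copies.

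**Figure D3:**
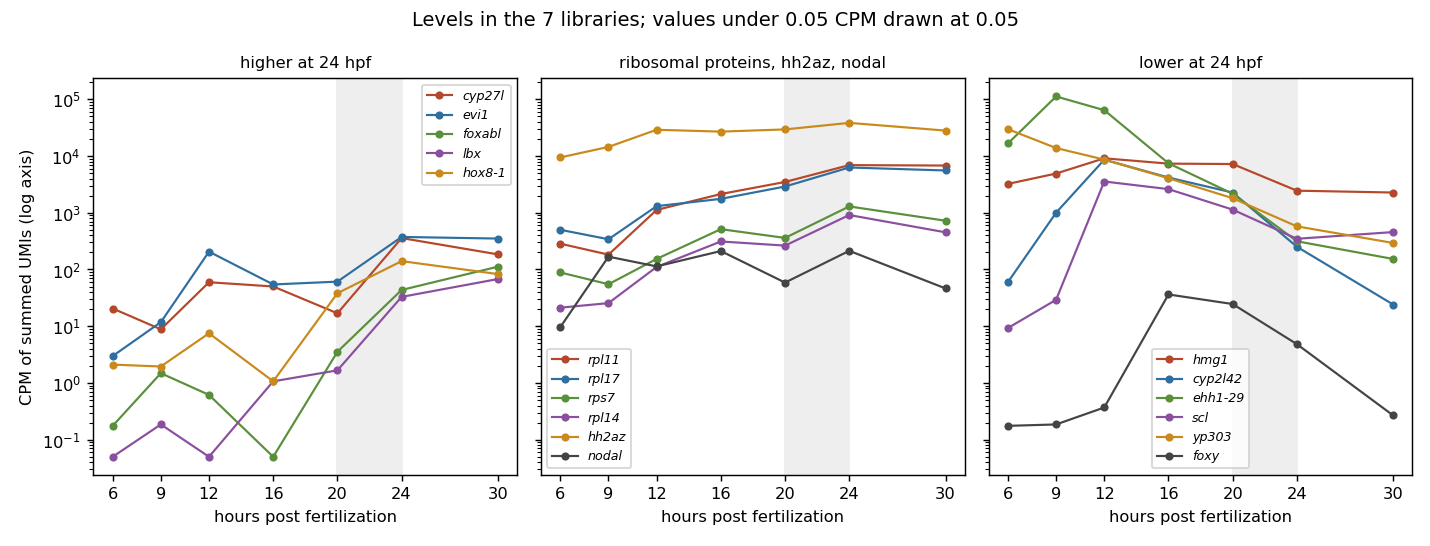
Lines give the CPM of summed UMIs in the 7 libraries from 6 to 30 hpf on a log axis, with 1 library per point, the step from 20 to 24 hpf shaded and values under 0.05 CPM drawn at 0.05. The left panel holds genes higher at 24 hpf, the middle panel ribosomal protein genes with *hh2az* and *nodal*, and the right panel genes lower at 24 hpf. *lbx* and *foxabl* stay near the bottom of the axis up to 16 hpf, *nodal* goes up and down between libraries, and *yp303* is lower in each later library.

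At the other end, several transcription factors were nearly absent at 20 hpf. *pitx1* (HER_24354.t1), a homeodomain factor, had 150 UMIs at 24 hpf and 1 UMI at 20 hpf (17.3 and 0.208 CPM, ratio 82.8, 14.6 to 3290). *sp8* (HER_21627.t1), a zinc finger factor of the Sp family, had 167 UMIs at 24 hpf and 2 UMIs at 20 hpf (46.1, 12.6 to 384). Both kept similar levels at 30 hpf or above, with 18.7 CPM for *pitx1* and 39.1 CPM for *sp8*. *lbx* (HER_9150.t1), a homeobox gene of muscle precursors in vertebrates, had 32.9 CPM at 24 hpf and 1.67 CPM at 20 hpf (19.7, 9.88 to 46.1) and 67.9 CPM at 30 hpf. With so few UMIs at 20 hpf the upper ends of these ratios are open, and the detection at 24 hpf is the firmer part.

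*pitx1* and *lbx* were found in the same cells at 24 hpf, together with genes of the right coelomic pouch and of muscle. Of 149 cells with a UMI of *hox8-1*, a Hox gene, at 24 hpf, 112 (75.2%, 67.4 to 81.9) had *wnt9*, 102 had *myod2*, 98 had *macpfb.0-1*, 65 had *lbx* and 50 had *pitx1*. The shares in the remaining cells were 0.820% for *wnt9*, 0.911% for *myod2*, 2.52% for *macpfb.0-1* and 0.942% for *lbx*, at median depths of 3310 UMIs in the *hox8-1* cells and 2316 UMIs in the others. *myod2* is a bHLH factor of the MyoD family that drives muscle genes, and *macpfb.0-1* is named for the pore-forming domain of perforin. Of 63 *pitx1* cells, 50 had *hox8-1*, 49 *wnt9*, 47 *myod2* and 47 *macpfb.0-1*.

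At 20 hpf this combination was only partly there. Of 59 *hox8-1* cells, 44 (74.6%, 61.6 to 85.0) had *wnt9*, close to the share at 24 hpf. Of the same cells, 12 (20.3%, 11 to 32.8) had *myod2*, 3 had *macpfb.0-1* and 3 had *lbx*. These shares were not matched in depth. From the side of *wnt9*, 112 of 139 cells (80.6%) had *hox8-1* at 24 hpf and 44 of 156 (28.2%) at 20 hpf. More of the *wnt9* cells of 20 hpf held *nanos2*, which was in 22 of 139 (15.8%) at 24 hpf and in 59 of 156 (37.8%) at 20 hpf. *foxd-1* did not differ in this way before thinning, with 55.4% of the *wnt9* cells at 24 hpf and 55.1% at 20 hpf. The median depth of *wnt9* cells was 3258 UMIs at 24 hpf and 2047 UMIs at 20 hpf, and after thinning to 500 UMIs *hox8-1* was found in 26 of 58 *wnt9* cells at 24 hpf and in 6 of 65 at 20 hpf.

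In summed counts, *hox8-1* had 140 CPM at 24 hpf and 38.2 CPM at 20 hpf (3.68, 3.15 to 4.32), *myod2* had 43.7 and 8.13 CPM (5.38, 3.86 to 7.68) and *macpfb.0-1* (HER_25163.t1) had 54.3 and 3.34 CPM (16.3, 9.92 to 28.7). *wnt9*, a Wnt ligand, went the other way, with 51.9 CPM at 24 hpf and 76.3 CPM at 20 hpf (0.680, 0.591 to 0.782). Shares of thinned cells were 2.47% at 24 hpf and 0.890% at 20 hpf for *hox8-1*, and 1.25% and 0.308% for *myod2*. No thinned *hbn* cell, of an ectodermal kind that should lack them, had either, which allows up to 0.521% at 24 hpf and 0.621% at 20 hpf (median depths of 2083 and 1415 UMIs). *hypp-2695*, a hypothetical protein with 122 UMIs at 24 hpf and 3 UMIs at 20 hpf, also followed *hox8-1* at 24 hpf.

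**Figure D4:**
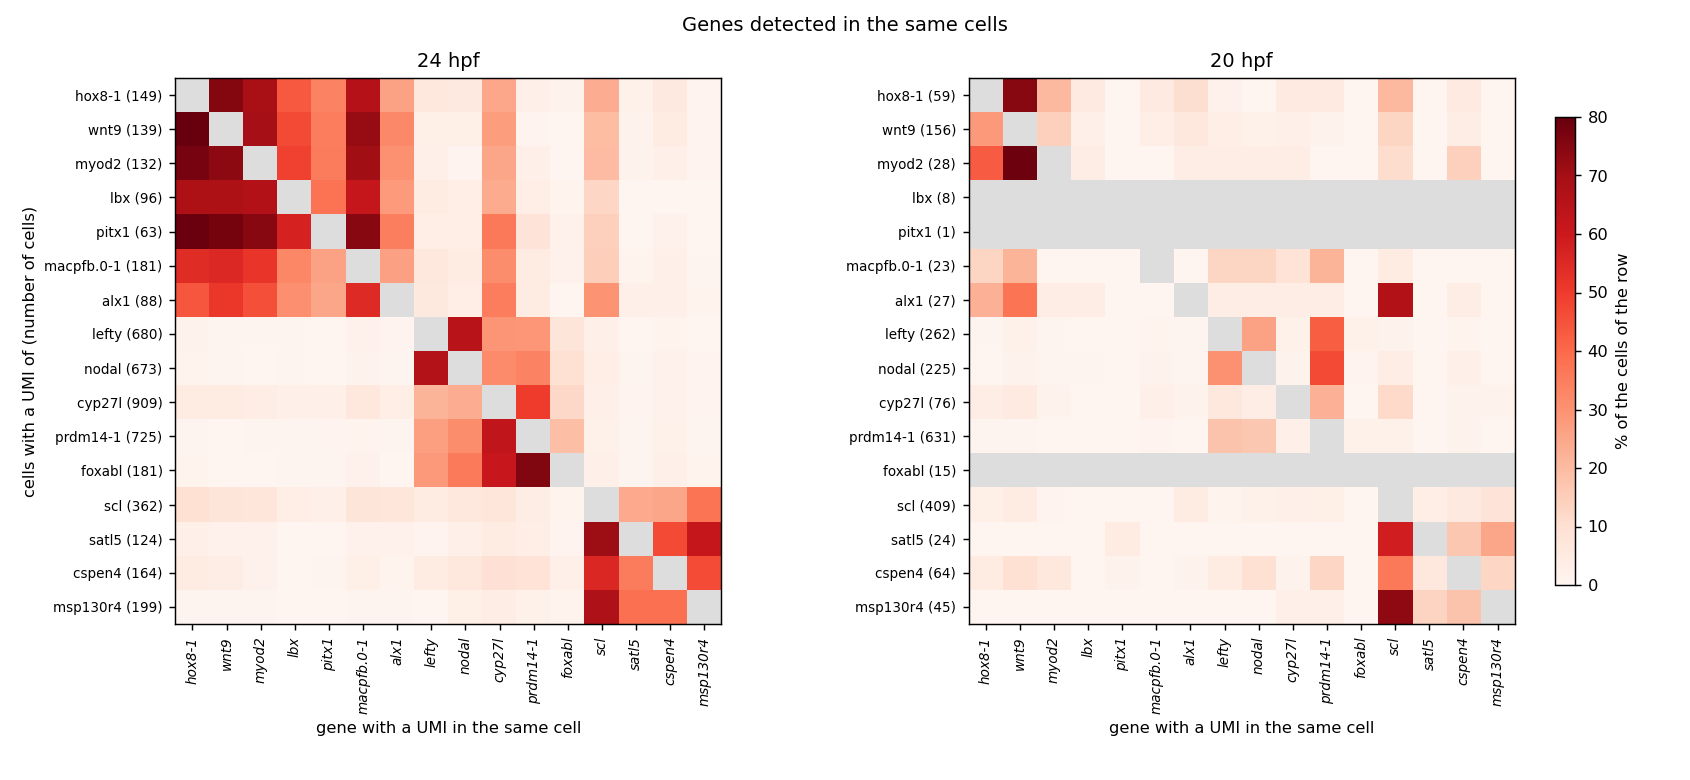
Rows are the cells with at least 1 UMI of the gene named, with their number in brackets, and the colour gives the percentage of them with a UMI of the gene in the column, at 24 hpf on the left and 20 hpf on the right. Grey rows had fewer than 20 cells, and the grey diagonal is the gene with itself. At 24 hpf *hox8-1*, *wnt9*, *myod2*, *lbx*, *pitx1* and *macpfb.0-1* form a block in the upper left, which at 20 hpf is limited to *hox8-1*, *wnt9* and *myod2*.

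The Nodal ligand and its antagonist were both higher at 24 hpf. *nodal*, the TGF-beta ligand that sets the oral side and later the right side in sea urchins, had 213 CPM at 24 hpf and 58.8 CPM at 20 hpf (3.63, 3.20 to 4.13). *lefty*, the secreted Nodal antagonist that Nodal signalling induces, had 243 CPM at 24 hpf and 81.9 CPM at 20 hpf (2.96, 2.66 to 3.31). In thinned cells these were seen in 7.82% at 24 hpf and 3.05% at 20 hpf for *nodal* and in 8.78% and 3.25% for *lefty* (19.6% and 7.31%, and 19.8% and 8.51%, of all cells). In *pks1* cells, which should lack these genes, the share of *nodal* was 0.699% at 24 hpf and that of *lefty* 1.40%, and 0 of 101 cells had either at 20 hpf, which allows up to 2.97%.

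The ligand and the antagonist shared cells more often at 24 hpf. Of 673 *nodal* cells at 24 hpf, 444 (66.0%, 62.3 to 69.6) had *lefty*, while of 225 *nodal* cells at 20 hpf 68 (30.2%, 24.3 to 36.7) had *lefty*. After thinning, *lefty* was in 112 of 269 *nodal* cells at 24 hpf and in 12 of 89 at 20 hpf. In the remaining cells *lefty* was found in 8.53% at 24 hpf and 6.80% at 20 hpf, at median depths of 2316 and 1469 UMIs.

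Other members of the Nodal and BMP list were few. Of 15 tested, 3 were at least 2-fold higher at 24 hpf (*nodal*, *lefty* and *grem*, a BMP antagonist, with 16.9 and 6.88 CPM) and 1 was lower, with a list median of -0.20 (0.03 with size factors). The lower one was *admp*, an anti-dorsalizing BMP ligand, with 9.66 CPM at 24 hpf and 37.1 CPM at 20 hpf (0.260, 0.198 to 0.339). The level of *nodal* was not steady over the libraries, with 168, 113, 211, 58.8, 213 and 46.3 CPM from 9 to 30 hpf, and *lefty* followed the same up and down with 255, 158, 336, 81.9, 243 and 36.3 CPM. Both were therefore low at 20 hpf relative to its 2 neighbours.

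*cyp27l* (HER_45620.t1), a cytochrome P450 of the family that hydroxylates sterols in vertebrates, had the highest ratio by its interval. It had 358 CPM at 24 hpf and 16.9 CPM at 20 hpf (21.2, 17.0 to 26.8) and a UMI in 909 cells at 24 hpf and 76 cells at 20 hpf, which was 10.8% and 0.718% of thinned cells (26.4% and 2.47% of all cells). Of the 909 cells, 454 (49.9%) had *prdm14-1*, a PR domain zinc finger gene marking left ectoderm, against 10.7% of the remaining cells at median depths of 2681 and 2216 UMIs. At 20 hpf *prdm14-1* was in 22.4% of the *cyp27l* cells and 20.5% of the rest. The gene was not confined to these cells, since its thinned share was 4.17% at 24 hpf and 0.621% at 20 hpf in *hbn* cells, and 4.2% at 24 hpf and 0 of 101 cells at 20 hpf, which allows up to 2.97%, in *pks1* cells.

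*foxabl* (HER_10887.t1), a forkhead gene, had 43.6 CPM at 24 hpf and 3.54 CPM at 20 hpf (12.3, 7.58 to 21.3) and 112 CPM at 30 hpf. It shared its cells with *prdm14-1* at both ages, in 137 of 181 (75.7%) at 24 hpf and in 13 of 15 (86.7%, 59.5 to 98.3) at 20 hpf. *cyp27l* was found in 110 of the 181. *sp8* cells overlapped with *cyp27l* as well, with 92 of 119 (77.3%) at 24 hpf against 24.6% of the rest, and among the markers *giant* was most enriched in them, with 183 CPM in *sp8* cells and 32.0 CPM in the others.

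*evi1*, a PR domain zinc finger gene, had 375 CPM at 24 hpf and 61.1 CPM at 20 hpf (6.13, 5.44 to 6.94), in 10.6% and 2.22% of thinned cells (21.8% and 5.72% of all cells), against 0.868% and 0.621% of *hbn* cells. Its cells joined several of the groups above at 24 hpf, with *cyp27l* in 428 of 751 (57.0%) and *hox8-1* in 113 of 751 (15%), against 17.9% and 1.34% of the rest. At 20 hpf, 4 of 176 *evi1* cells (2.27%) had *cyp27l* and 21 (11.9%) had *hox8-1*. In *endo16* cells *evi1* had 889 CPM at 24 hpf and 256 CPM at 20 hpf, more than in the library at large at both ages. *yp30/fascl* (HER_9387.t1), named for a fasciclin domain, had 67.0 CPM at 24 hpf and 5.0 CPM at 20 hpf (13.4, 8.92 to 21.1), and *foxa*, a forkhead gene of the endoderm, was among the 3 markers most enriched in its cells at both ages.

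Mesodermal regulators went in both directions. Of 20 tested, *myod2* was at least 2-fold higher and 4 were at least 2-fold lower at 24 hpf, with a list median of -0.34 against -0.19 over all features. The shares over all genes were 2.49% higher and 3.46% lower. Of the lower ones *scl* had most UMIs and was found in 5.49% of thinned cells at 24 hpf and 10.4% at 20 hpf, and in *hbn* cells in 0.521% and 1.04%. *foxy*, a forkhead gene of the coelomic pouches, had 4.83 CPM at 24 hpf and 24.6 CPM at 20 hpf (0.196, 0.135 to 0.281), in 0.174% and 0.684% of thinned cells. *e2f3*, an E2F factor, had 31.4 CPM at 24 hpf and 65.5 CPM at 20 hpf (0.480, and over 0.5 with size factors).

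*scl* was lower at 24 hpf within the blastocoelar cells themselves. In cells with the transformer marker *scl* had 1021 CPM at 24 hpf and 6565 CPM at 20 hpf (0.156, 0.145 to 0.167), and a UMI in 30.9% and 75.7% of thinned cells. The other markers of these cells differed in direction, with 7487 CPM at 24 hpf and 5450 CPM at 20 hpf for *astacin4*, a metalloprotease, and 86.8 CPM at 24 hpf and 130.7 CPM at 20 hpf (0.664, 0.483 to 0.916) for *irf4*, an interferon regulatory factor. In the library as a whole the transformer marker had 1661 CPM at 24 hpf and 1175 CPM at 20 hpf (1.41, 1.37 to 1.46). Counting every cell with a UMI, *scl* was in 247 of 539 cells with the transformer marker (45.8%) at 24 hpf and in 297 of 398 (74.6%) at 20 hpf. Cells with at least 3 UMIs of the marker were 10.6% of all cells at 24 hpf and 9.88% at 20 hpf, at median depths of 2680 and 1777 UMIs, and cells with a UMI after thinning were 11.7% at 24 hpf and 11.05% at 20 hpf.

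Other genes were higher in the same cells. *srcr177*, a scavenger receptor of the immune system, had 463 CPM at 24 hpf and 137 CPM at 20 hpf (3.38, 3.12 to 3.68) in the library and 3601 and 1071 CPM in cells with the transformer marker, in 66.1% and 34.6% of those after thinning. In *hbn* cells, which should lack it, *srcr177* was in 1.74% at 24 hpf and 0.828% at 20 hpf. *msp130r4*, named after the surface glycoproteins of skeletogenic cells, had 52.4 CPM at 24 hpf and 12.7 CPM at 20 hpf (4.12, 3.15 to 5.48), and 196 of its 199 cells (98.5%) at 24 hpf and 40 of 45 (88.9%) at 20 hpf had the transformer marker. *satl5* (HER_4431.t1) lay in these cells too, with the transformer marker in 115 of 124 cells at 24 hpf and in 20 of 24 at 20 hpf. It had 6.88, 48.4 and 1.87 CPM at 20, 24 and 30 hpf, after 55.6 CPM at 6 hpf, so its high level was met at 24 hpf only among the last 3 libraries. *cspen4* (HER_22201.t1) had 27.8 CPM at 24 hpf and 2.92 CPM at 20 hpf (9.54, 5.57 to 17.7), and summed over all features of that name, 125 of 164 cells at 24 hpf and 23 of 64 cells at 20 hpf had the transformer marker.

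The skeletogenic list was thin. Only 5 of 26 genes reached 50 UMIs, of which *msp130r5* (10.4 CPM at 24 hpf and 1.04 CPM at 20 hpf) and *msp130r4* were at least 2-fold higher. *alx1*, a homeodomain factor at the head of the skeletogenic network in other sea urchins, had 19.6 CPM at 24 hpf and 16.3 CPM at 20 hpf, with an interval of the ratio of 0.914 to 1.59 that holds 1. Among all cells with a UMI of *alx1*, not matched in depth, *scl* was in 26 of 88 (29.5%, 20.3 to 40.2) at 24 hpf and in 18 of 27 (66.7%, 46.0 to 83.5) at 20 hpf. *hox8-1* was in 39 of 88 *alx1* cells (44.3%, 33.7 to 55.3) at 24 hpf and in 6 of 27 (22.2%, 8.62 to 42.3) at 20 hpf, at median depths of 3238 and 2031 UMIs. After thinning, 23 and 14 *alx1* cells were left, with *scl* in 10 at 24 hpf and in 8 at 20 hpf. These are too few to show a difference in *scl* at equal depth, and the intervals of *hox8-1* overlap.

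RNAs that mark pigment cells had ratios below 1 in the library sums, and a few others found in these cells were much lower. Cells with at least 3 UMIs of *pks1* were 4.16% of cells at 24 hpf and 3.28% at 20 hpf, at median depths of 2348 and 1636 UMIs. *pks1*, the polyketide synthase of pigment synthesis, had 127 CPM at 24 hpf and 167 CPM at 20 hpf (0.759, 0.693 to 0.832), *mif4* had 2415 and 2707 CPM (0.892), and *hox11/13c* had 129 and 217 CPM (0.594). The log2 ratio of *mif4* was -0.17, near the median of -0.19 over all features, and turns to 0.07 with size factors. *clect-28*, a C-type lectin, had 11.7 CPM at 24 hpf and 63.6 CPM at 20 hpf (0.185, 0.146 to 0.232), and its cells at 20 hpf had 2594 CPM of *pks1* against 75.1 CPM in the others. *hypp-2120*, a hypothetical protein with a ratio of 0.20, marked the same cells, with 1923 CPM of *pks1* against 52.5 CPM in the others at 24 hpf and 1644 against 26.0 CPM at 20 hpf.

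Of further genes with low ratios, *taut-2* and *gage4* lay in cells rich in endoderm or coelomic pouch markers, and *col* was read in blastocoelar cells. *taut-2* (HER_30417.t1_HER_30422.t1), a taurine transporter by name, had 7.02 CPM at 24 hpf and 39.8 CPM at 20 hpf (0.176, 0.130 to 0.236), and the cells of that name had 1027 CPM of *foxa* against 192 CPM in the others at 24 hpf and 1360 against 207 CPM at 20 hpf. *gage4* (HER_12799.t1) had 8.39 CPM at 24 hpf and 41.3 CPM at 20 hpf (0.203), and *foxy* was the marker most enriched in cells of that name at both ages. Summed over all features of that name, the ratio of *gage4* was 0.432 and came to 0.507 with size factors. *col* (HER_33056.t1), named after the Collier/EBF transcription factors, had 19 CPM at 24 hpf and 104 CPM at 20 hpf (0.182, 0.152 to 0.218), and summed over all features of the name it was lower in the cells with the transformer marker, with 182 CPM at 24 hpf and 863 CPM at 20 hpf. At 20 hpf the *gage4* cells had 419 CPM of *wnt9* against 47.5 CPM in the others.

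Genes of the anterior ectoderm went in both directions: of 15 animal pole and anterior ectoderm regulators, 6 had ratios above 1 and 9 below 1, 1 was at least 2-fold higher and 1 lower, and the list median of -0.21 was near that of all features and turns to 0.02 with size factors. The 4 markers of the animal pole domain all had ratios below 1, with *hbn* at 612 CPM at 24 hpf and 857 CPM at 20 hpf (0.714, 0.685 to 0.744) and *six3* at 462 and 535 CPM (0.864). None was 2-fold lower, and *six3* turns to a ratio above 1 with size factors. *foxg*, a forkhead gene of anterior ectoderm, had 201 CPM at 24 hpf and 378 CPM at 20 hpf (0.531, 0.497 to 0.567), *otx* had 75.2 and 143 CPM (0.528), and *awh*, a LIM homeodomain gene, had 19.3 and 51.1 CPM (0.378, 0.309 to 0.462). *dmrta2*, a zinc finger gene of the DM type in the same list, was higher, with 21.9 and 6.46 CPM (3.38, 2.30 to 5.12), as was *lhx2-1*, a LIM homeodomain gene, with 33.8 and 18.97 CPM (1.78, 1.40 to 2.28). In *hbn* cells *foxg* had 170 CPM at 24 hpf and 337 CPM at 20 hpf.

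The 4 markers of the posterior ectoderm (*hox7*, *lox*, *msx* and *wnta*) all had ratios above 1, of which *lox* had the highest with 55.3 CPM at 24 hpf and 33.8 CPM at 20 hpf (1.64, 1.37 to 1.97), and none reached 2-fold. The interval of *wnta* (0.965 to 1.25) held 1. Among 10 Wnt ligands, *wnt3* was at least 2-fold higher, with 27.8 CPM at 24 hpf and 12.1 CPM at 20 hpf (2.30, 1.72 to 3.12), and *wnt5* was lower, with 70.5 and 150 CPM (0.471, and 0.552 with size factors). *fzd4*, a Wnt receptor, had 65.3 CPM at 24 hpf and 23.1 CPM at 20 hpf (2.82, 2.30 to 3.49). *ars*, arylsulfatase, a secreted enzyme of the outer ectoderm, had 11539 CPM at 24 hpf and 6894 CPM at 20 hpf in the library (1.67, 1.65 to 1.70). It stood at 24699 CPM at 24 hpf and 13628 CPM at 20 hpf in *hbn* cells and at 365 and 340 CPM in *pks1* cells.

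Rudiment regulators put forward by the study and listed neural regulators were higher more often than lower, while neuronal effector genes were not. Of 29 putative rudiment regulators, a list that the study chose on an atlas with these samples and that is therefore no independent evidence, 6 were at least 2-fold higher at 24 hpf and none was lower, with a median of 0.49. Among the 6 were *roral*, a nuclear receptor (22.9 CPM at 24 hpf and 6.05 CPM at 20 hpf), *giant*, a bZIP factor (38.5 and 11.1 CPM), *dmrta2*, *nr1m1*, a nuclear receptor (14.1 and 5.21 CPM), and *acsc*, a proneural bHLH factor (23.5 and 10.8 CPM). Of 19 neural regulators, 3 were at least 2-fold higher and none lower, with a median of 0.35: *neurod*, a bHLH factor of differentiating neurons (6.33 and 1.04 CPM), *arx* (110 and 40.2 CPM) and *acsc*. Of 21 neuronal effector genes, none was higher and 3 were lower, with a median of -0.22, and with size factors 1 was higher, 1 lower and the median 0.01. Among them, the neural markers of the study went both ways, with log2 ratios of 0.315 for *calml1* and -0.67 for *secrtag*. Over all genes 2.49% were higher and 3.46% lower. *hmx*, a homeodomain gene in the list of the neural regulators, had 165 CPM at 24 hpf and 282 CPM at 20 hpf (0.586, 0.544 to 0.632).

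Counted in thinned cells, features with a lower share at 24 hpf outnumbered those with a higher share. The median log2 ratio of the shares was -0.21, near the -0.19 of CPM. No other scaling was tried for shares, so this balance may depend on the scaling as that of CPM does. Of 6333 features with a UMI in at least 50 thinned cells over both libraries, 107 (1.69%) had a share at least 2-fold higher at 24 hpf and 291 (4.59%) at least 2-fold lower. Of the features past 2-fold in CPM, 131 higher and 186 lower ones reached these 50 cells, and 85 and 136 of them also passed 2-fold in their share. Without thinning the balance is the reverse, with 1089 features higher and 59 lower, since the cells of 24 hpf were deeper. *ascc3l1*, among the lower features, was in 35.5% of thinned cells at 24 hpf and 59.2% at 20 hpf.

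**Figure D5:**
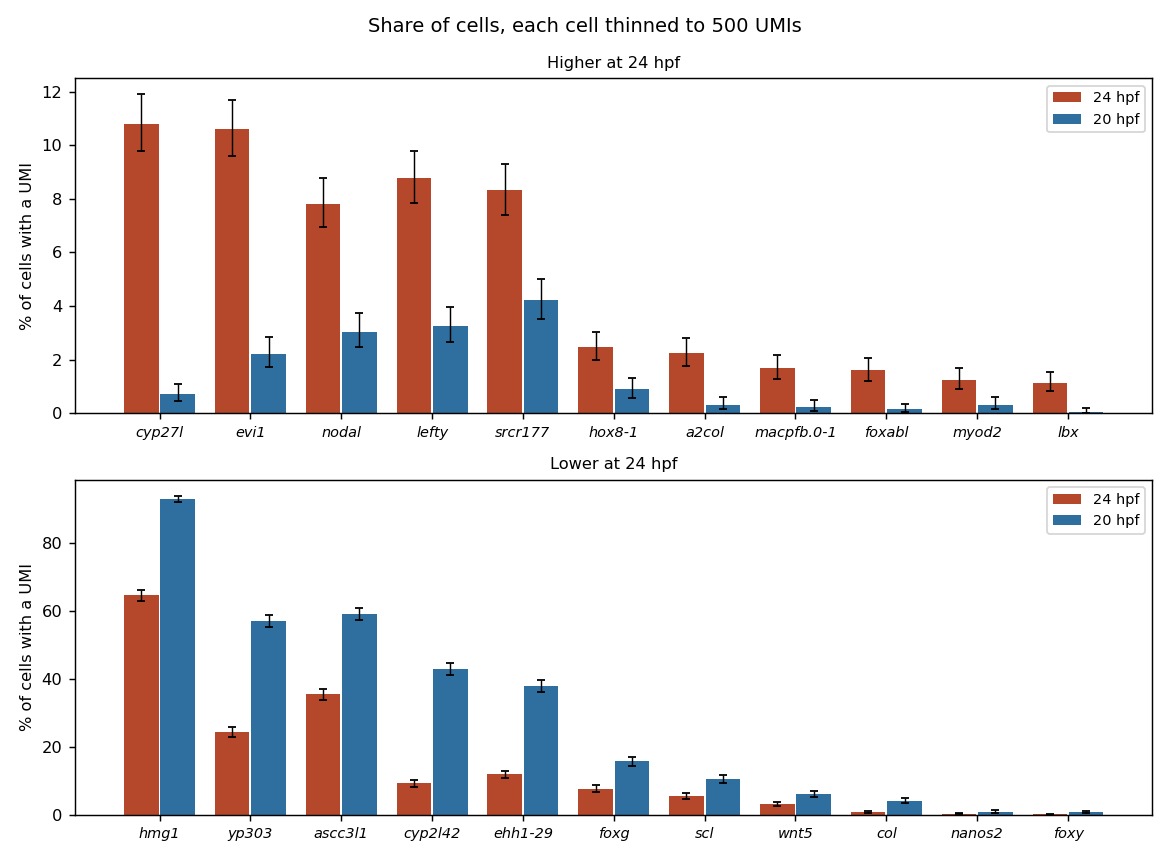
Bars give the percentage of cells with a UMI at 24 hpf (red, 3441 cells) and 20 hpf (blue, 2923 cells) after each cell was thinned to 500 UMIs, with exact 95% binomial intervals, for genes higher (upper panel) and lower (lower panel) at 24 hpf. *cyp27l* stands at 10.8% at 24 hpf and 0.718% at 20 hpf, and *cyp2l42* at 9.24% and 42.9%.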

How the data were processed

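For each library the authors deposited raw counts, the UMIs of each of 38707 features in every barcode, made with Cell Ranger 3.1.0 and not normalized. The genome build and annotation behind the features are not given in the sources used here. Gene names are those of the files, which follow names from another sea urchin, and 6991 features carry no name. No coordinates were used, and *btub13* and *fbs-2* matched no feature. Probe sequences come from the supplementary material of the study.

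UMIs were summed per library over the kept cells and divided by the library total (CPM) in Python 3.11.15 with numpy 2.4.6 and scipy 1.17.1, and figures were drawn with matplotlib 3.10.9. Ratios of 24 over 20 hpf have exact 95% intervals from the conditional binomial, levels exact Poisson and shares Clopper-Pearson intervals, and a share of 0 is limited by 3 counts. Intervals and limits cover counting error only. Features needed 50 UMIs over both libraries (20 for 30 against 16 or 12 hpf), and shares 50 thinned cells. Features of the same name were summed, except in rankings and for levels printed beside an identifier, while shares of cells in which 2 genes met, and marker levels in the cells of a gene, use summed features. Marker sets are cells with at least 3 UMIs of the marker. With 1 library per age, no test was made, and no p-value is given. The steps were tested on simulated data.

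Genes named were the 15 highest and 15 lowest ratios by the interval end nearest 1 (at least 100 UMIs), the 6 largest gains and losses in CPM, up to 4 members at each end of each list and all markers. Members, lists and rules were chosen with earlier results of these data known. Alternatives were other cell filters, scalings, pseudocounts, minimums and thinning depths, with CPM outside ribosomal proteins added after seeing the data. Some genes that the rule takes in are not reported here.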

Additional observations from a re-analysis of the deposited data

How the results depend on the processing

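The numbers of features at least 2-fold higher and lower at 24 hpf (298 and 448) came to 482 and 229 with size factors, 163 and 180 with a pseudocount of 5 CPM, 516 and 837 with a minimum of 20 UMIs, 153 and 194 with a minimum of 200 UMIs and 1175 and 4072 with no minimum. Numbers by share of cells (107 higher and 291 lower) came to 1089 and 59 without thinning and to 263 and 661 with a minimum of 20 cells. They stayed within 1.5 times the first values with no filter on cells, more than 500 genes per cell, the 5% of cells with most UMIs left out, libraries thinned to the same total, a pseudocount of 1 CPM, cells weighted equally, genes summed by name and thinning to 1000 UMIs. The share of higher features among those past 2-fold was 39.95% in CPM, 67.8% with size factors, which raise the median by 0.23 on the log2 scale, and 53.6% outside cytosolic ribosomal proteins, which raises it by 0.10. Of 485 genes named or listed, 75 changed the sign of their log2 ratio with size factors, 27 outside ribosomal proteins, 19 without the deepest cells, and 0 to 18 under the other 5 settings. With size factors 17 genes past 2-fold came under it, *wnt5*, *grp94*, *hsp40d*, *e2f3* and *ascc3l1* among them, and 18 of 55 list medians changed sign. No paired analysis was possible because each age had 1 library, and no library could be left out. Depth limits genes under about 50 UMIs and shares in the small marker sets.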

Other observations

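*chrna9* (HER_5480.t1), named as a subunit of the nicotinic acetylcholine receptor, was the receptor gene with most UMIs. It had 1543 CPM at 24 hpf and 455 CPM at 20 hpf (ratio 3.39, 3.24 to 3.55) and was found in 52.5% of thinned cells at 24 hpf and 20.4% at 20 hpf. Its ratio lay between 3.05 and 3.54 in the 5 sets of marker-positive cells, and its course was 327, 455, 1543 and 986 CPM at 16, 20, 24 and 30 hpf. Of the 53 receptor genes tested, 3 were at least 2-fold higher and 5 at least 2-fold lower, against 2.49% and 3.46% of all genes. *drd1-2*, a dopamine receptor by name, was found in 192 cells at 24 hpf and 12 cells at 20 hpf (9.52, 5.33 to 18.7), while *drd1l-1* had 136 CPM at 24 hpf and 321 CPM at 20 hpf (0.422, 0.391 to 0.456).

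Among 101 innate immune genes 4 were at least 2-fold higher (*macpfb.0-1*, *srcr177*, *srcr43* and *nlr132*) and 4 at least 2-fold lower (*tlr143*, *srcr101*, *nlr76* and *bpi*), with a median of -0.21 (0.02 with size factors). Over all genes 2.49% were higher and 3.46% lower. Solute carriers were the longest list, with 10 of 222 higher and 13 lower. *slc34a2-1*, a phosphate transporter, had 198.4 CPM at 24 hpf and 65.7 CPM at 20 hpf (3.02, 2.68 to 3.42), and *slc7a14-1* had 4.03 and 16.7 CPM (0.241, 0.157 to 0.363). Tubulins had a median of 0.59, with *btub1* at 4432 CPM at 24 hpf and 2616 CPM at 20 hpf (1.69, 1.66 to 1.73), and *soxb1*, an ectodermal HMG box factor, had 1611 and 1043 CPM (1.54, 1.5 to 1.6). *fbsl-2*, in the list of the apical extracellular layer, had 36.6 CPM at 24 hpf and 6.67 CPM at 20 hpf (5.48, 3.81 to 8.15).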
